A study of Mus musculus with 2 samples.

Results

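Cytotoxic lymphocytes kill through a small set of gene products, and 8 of them were followed here through Lewis lung carcinoma (LLC) tumors grown in mice. They were chosen by name: the granule proteases Gzma, Gzmb and Gzmc (granzymes A, B and C), the pore-forming protein Prf1 (perforin), the granule membrane protein Nkg7, the death ligand Fasl, and the receptors Klrk1 (NKG2D) and Klrd1 (CD94). All 8 were among the 32285 genes of the count matrices. LLC is a lung carcinoma line of C57BL/6 origin that grows as a subcutaneous graft in mice of that strain. The RNA of single cells was read from 1 library for each condition, and a library pooled the cells of 3 tumors. The sGC-Ctr mice carried Gucy1b1 flox/flox, a floxed gene for a subunit of soluble guanylyl cyclase (sGC). The sGC-∆PC mice carried Cspg4-CreERT2::Gucyc1b1 flox/flox, with the gene name as that label spells it. Both groups were C57BL/6, carried the floxed alleles, were given tamoxifen 5 times when 4 weeks old, were inoculated at 8 weeks and were dissected 2 weeks later. The Cre is driven by Cspg4 to act in pericytes, the mural cells of small vessels, so the lymphocytes described below are not the cells that the deletion was meant for. With 1 pooled library per condition, condition and library cannot be told apart, the spread between tumors is unknown, and no test between conditions was possible. Every interval below is a 95% interval that covers counting error only.

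A killer cell holds granzymes and perforin in secretory granules and releases them toward a bound target. Perforin opens the target membrane, and granzymes then cleave proteins inside the target. Fas ligand kills by a separate route, through the Fas receptor. NKG2D binds stress ligands on target cells and triggers killing. CD94 pairs with NKG2 chains into activating or inhibitory receptors for a nonclassical MHC class I molecule. Natural killer (NK) cells carry this machinery ready-made, whereas CD8 T cells acquire it after activation.

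The genes lie at 6 places in the genome (GRCm38, GENCODE M21 gene spans). Gzmb (chr14:56258838-56262260, minus strand) and Gzmc (chr14:56231441-56234656, minus strand) lie 24181 bases apart in the granzyme cluster of chromosome 14, whereas Gzma is elsewhere (chr13:113093825-113100981, minus strand). Klrd1 (chr6:129591782-129598775, plus strand) and Klrk1 (chr6:129610323-129623864, minus strand) are neighbors in the NK gene complex, 11547 bases apart. Prf1 lies at chr10:61297833-61304680 on the plus strand, Nkg7 at chr7:43437073-43438249 on the plus strand and Fasl at chr1:161780689-161788495 on the minus strand. Granzyme genes resemble one another, so read sharing was checked: of all 60-base stretches in the last 500 bases of the transcripts of the 8 genes, 0 occurred in a transcript of another gene.

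Upstream sequence is shown for 3 granule genes whose summed levels differed between cell classes in unlike ways below. Gzma and Prf1 were both higher in NK cells than in T cells, and Gzmb was lower. The stretches are the 250 bases before the RefSeq start site (GRCm38.p6), 5′ to 3′ on the strand of the gene. For Gzmb that start lies 74 bases from the GENCODE start, and for Gzma and Prf1 it lies 0 and 3 bases from it. Capitals mark AGGTGT, the core of T-box sites, and TGTGGT, the core of Runx sites, on either strand. T-box and Runx factors are known regulators of killer lymphocyte genes.
Gzma (chr13:113100982-113101231, minus strand): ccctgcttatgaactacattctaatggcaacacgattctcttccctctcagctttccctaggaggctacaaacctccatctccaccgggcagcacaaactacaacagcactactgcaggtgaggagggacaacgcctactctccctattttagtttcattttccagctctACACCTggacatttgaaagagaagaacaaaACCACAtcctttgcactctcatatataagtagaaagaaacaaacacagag
Prf1 (chr10:61297586-61297835, plus strand): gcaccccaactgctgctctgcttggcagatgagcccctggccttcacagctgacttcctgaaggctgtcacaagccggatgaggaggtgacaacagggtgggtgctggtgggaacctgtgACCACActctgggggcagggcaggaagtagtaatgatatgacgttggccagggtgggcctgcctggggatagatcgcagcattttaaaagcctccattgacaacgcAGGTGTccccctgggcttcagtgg
Gzmb (chr14:56262335-56262584, minus strand): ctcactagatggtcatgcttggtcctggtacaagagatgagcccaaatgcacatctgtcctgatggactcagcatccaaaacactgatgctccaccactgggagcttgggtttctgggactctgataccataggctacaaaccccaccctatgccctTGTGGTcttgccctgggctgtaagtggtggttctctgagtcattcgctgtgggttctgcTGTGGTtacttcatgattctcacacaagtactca
The Runx core was found in 6 of the 7 members with a promoter entry (Gzma, Gzmb, Gzmc, Prf1, Nkg7 and Klrk1, not Fasl) and in 14.0% of all 32851 promoters. The T-box core was found in 3 of them (Gzma, Prf1 and Nkg7) and in 11.8% of all promoters. Klrk1 and Gzmc, also higher in NK than in T cells, had 0 matches of the T-box core. Nkg7, which had 1, differed between NK and T cells by 0.65 and 0.41 on the log2 scale. The relation of the cores to the levels was not tested. In no member did the matches of the 2 cores overlap. A match of 6 letters is a description of sequence and not a binding site. Klrd1 had no entry.

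The libraries held 15007 (sGC-Ctr) and 25631 (sGC-∆PC) barcodes, of which 12220 and 22498 passed the filters, and 131 barcode sequences occurred in both. The kept cells differed in depth, with medians of 35776.5 and 8685 UMIs (unique molecular identifiers, molecules counted once). Cells were placed in classes by marker genes that include none of the 8 members. The gates found 72 and 78 T cells, which is 0.589% and 0.347% of the kept cells, and 11 and 8 NK cells, which is 0.0900% and 0.0356%. A further 7 and 5 cells passed both gates and are called T/NK double-positive cells. Depth in lymphocytes was similar in the libraries, with medians of 2827.5 and 3067 UMIs in T cells and 3777 and 3433.5 in NK cells. T cells carried all 6 T cell markers in both libraries. NK cells carried 9 of 9 and 8 of 9 NK markers, with Cd3e, Cd3g, Trac, Cd8a, Cd8b1 and Cd4 at 0 in both libraries and 28 and 14 UMIs of the other T cell markers. Of droplets that failed the filters, 6 and 17 would have passed the T cell gate and 3 and 2 the NK gate.

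The 6 granule and ligand genes were concentrated in the few lymphocytes. In sGC-Ctr, T, NK and double-positive cells together were 90 of the kept cells and held 75.4% (72.7 to 77.8%) of the 1136 UMIs of Gzma, Gzmb, Gzmc, Prf1, Nkg7 and Fasl. In sGC-∆PC they were 91 cells and held 43.2% (40.7 to 45.7%) of 1581 UMIs. By gene, the share in lymphocytes ran from 48.6% for Fasl to 85.2% for Gzma in sGC-Ctr, and from 25.7% for Fasl to 51.7% for Gzmc in sGC-∆PC. Most of the remainder lay in droplets of the cancer cell gate, with 11.6% and 32.1% of the UMIs of the 6 genes, and in droplets that passed several gates. In the cancer cell gate, droplets with a T or NK marker (1818 of 7560 and 2495 of 12348) held 83 of 132 and 361 of 507 of these UMIs. Among droplets passing several gates, those with such a marker (123 of 834 and 399 of 3335) held 88 of 96 and 258 of 284. Of droplets passing several gates, 26 and 55 passed a T or NK gate.

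**Figure D1:**
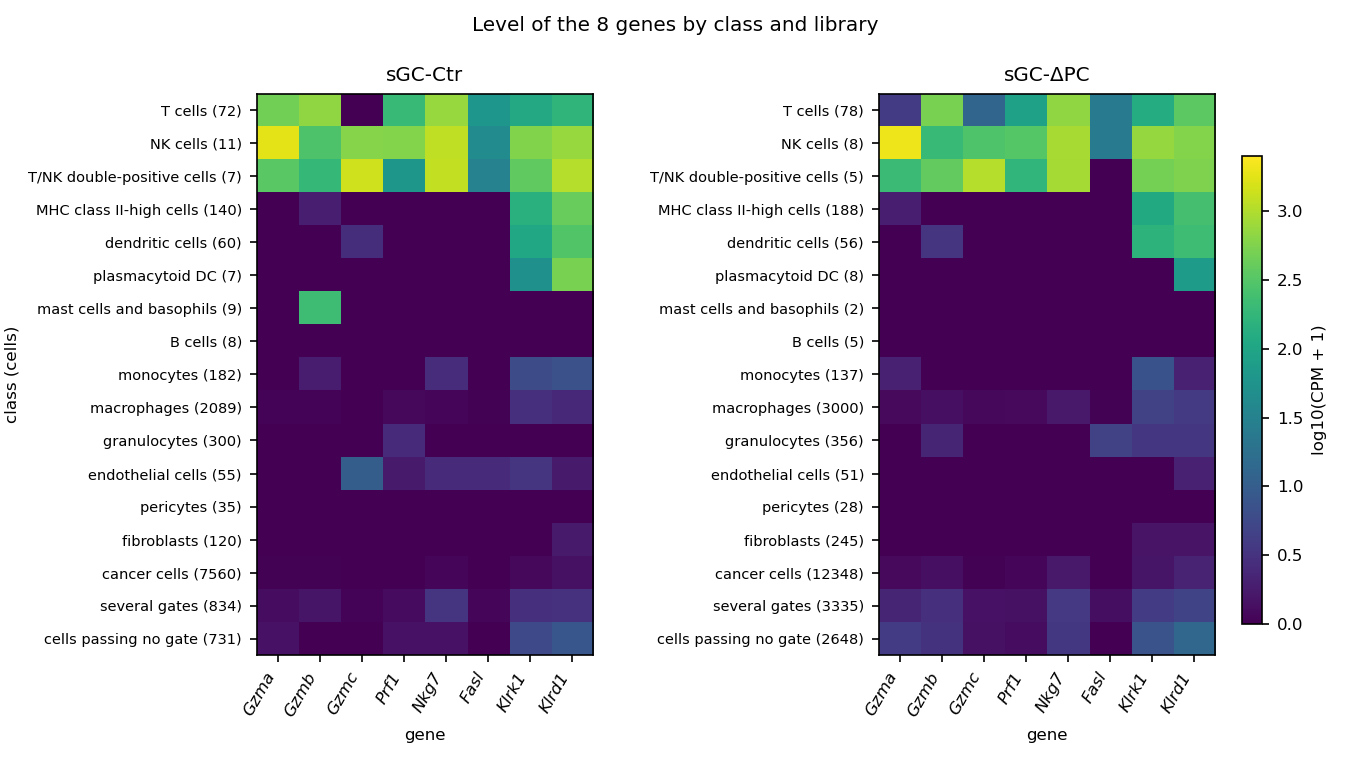
Level of each gene, as the log10 of CPM (counts per 1000000 UMIs of a class) plus 1 (color), in each class (rows, with the number of cells) of the sGC-Ctr (left) and sGC-∆PC (right) libraries. The granule genes and Fasl stand out in T, NK and T/NK double-positive cells, and Klrk1 and Klrd1 also in dendritic and MHC class II-high cells.

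The 2 receptor genes lay mainly outside lymphocytes. T, NK and double-positive cells held 11.8% (10.2 to 13.5%) of the 1506 UMIs of Klrk1 and Klrd1 in sGC-Ctr and 12.6% (11.1 to 14.1%) of 1958 in sGC-∆PC. Dendritic cells, together with cells rich in MHC class II transcripts that passed no gate, held 53.3% (50.8 to 55.9%) and 28.9% (26.9 to 31.0%). The same cells held 2 UMIs of the 6 granule and ligand genes in each library, 0.176% and 0.127% of their total. Droplets of the cancer cell gate held 16.3% and 29.1% of the receptor UMIs, and droplets that passed several gates held 7.10% and 14.1%. In sGC-∆PC the cancer cell gate thus held about as many receptor UMIs as the dendritic and MHC class II-high cells. Of the UMIs of all genes, however, the cancer cell gate held 86.4% and 81.1%. Dendritic and MHC class II-high cells held 0.341% and 0.370% of them, and T, NK and double-positive cells 0.0688% and 0.0998%.

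**Figure D2:**
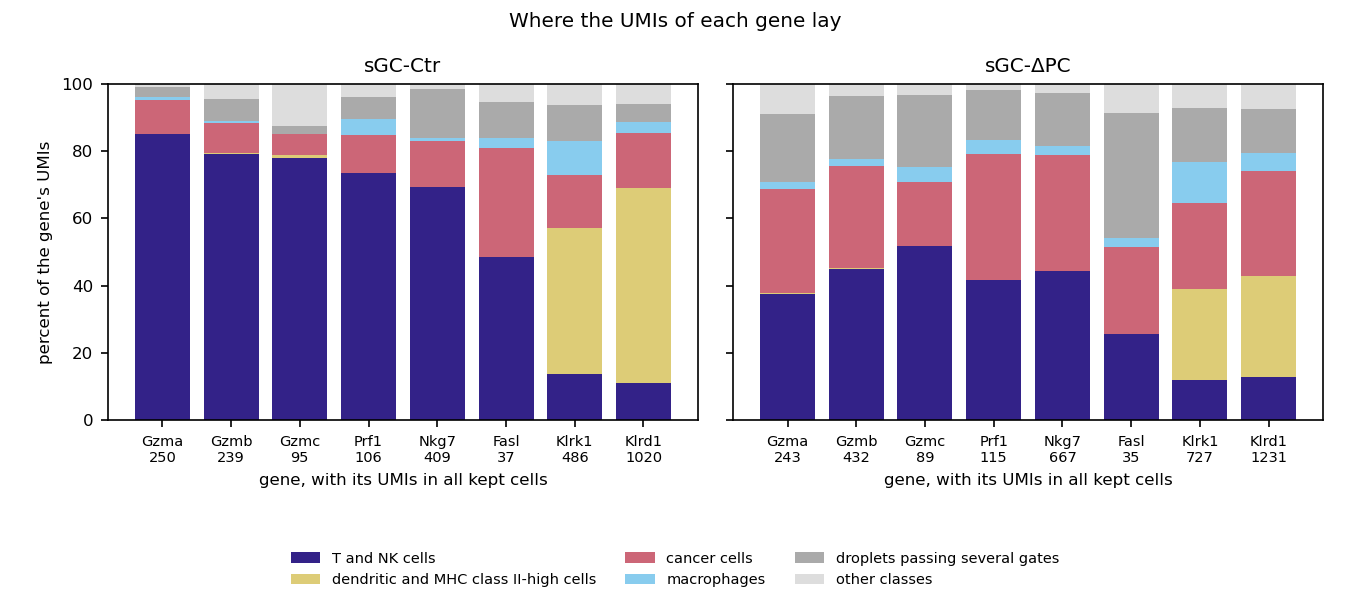
Percent of the UMIs of each gene (vertical axis) that lay in each class, with the gene's UMIs in all kept cells under its name, in sGC-Ctr (left) and sGC-∆PC (right). T and NK cells (dark blue, double-positive cells included) held 85.2% (control) and 37.4% of the UMIs of Gzma, whereas dendritic and MHC class II-high cells (yellow) held 58.0% and 30.1% of those of Klrd1.

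NK cells carried several members at once. Gzma, a protease that acts in the target independently of caspases, was their highest member, with 85 UMIs in 8 of 11 cells in sGC-Ctr and 84 UMIs in 6 of 8 cells in sGC-∆PC, or 1840 and 2056 counts per 1000000 UMIs of the class (CPM). UMIs count molecule ends, so CPM does not depend on transcript length. The UMIs were uneven: single NK cells held between 0 and 38 in sGC-Ctr and between 0 and 33 in sGC-∆PC. Nkg7, which takes part in granule release, gave 1190 and 906 CPM. Prf1 gave 584 (385 to 850) and 318 (169 to 544) CPM, from 27 and 13 UMIs. Gzmb, the granzyme that activates caspases, was lower than these, with 281 and 196 CPM from 13 and 8 UMIs. Fasl was at 2 and 1 UMIs. The order of levels in NK cells thus ran from Gzma over Nkg7 to Gzmb and Fasl in both libraries, while the intervals of Prf1, Klrk1, Klrd1 and Gzmc overlapped with one another.

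Gzmc was the most unevenly spread granzyme. In the control library its 28 NK cell UMIs came from 2 cells (17 and 11), and 46 more came from a single double-positive cell. In sGC-∆PC, 12 UMIs came from a single NK cell, and 4 of the 5 double-positive cells held 17, 10, 2 and 1. T cells held 0 Gzmc UMIs in sGC-Ctr, so that NK cells stood at least 50.4-fold higher against a floor of 3 counts in the class, and 4 UMIs in 3 cells in sGC-∆PC. All 3 of those T cells carried Cd8a or Cd8b1 and also Prf1, Nkg7, Klrk1 and Klrd1. Outside lymphocytes, a single droplet of the endothelial gate in sGC-Ctr held 12 Gzmc UMIs, the whole of its UMIs in that gate.

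**Figure D3:**
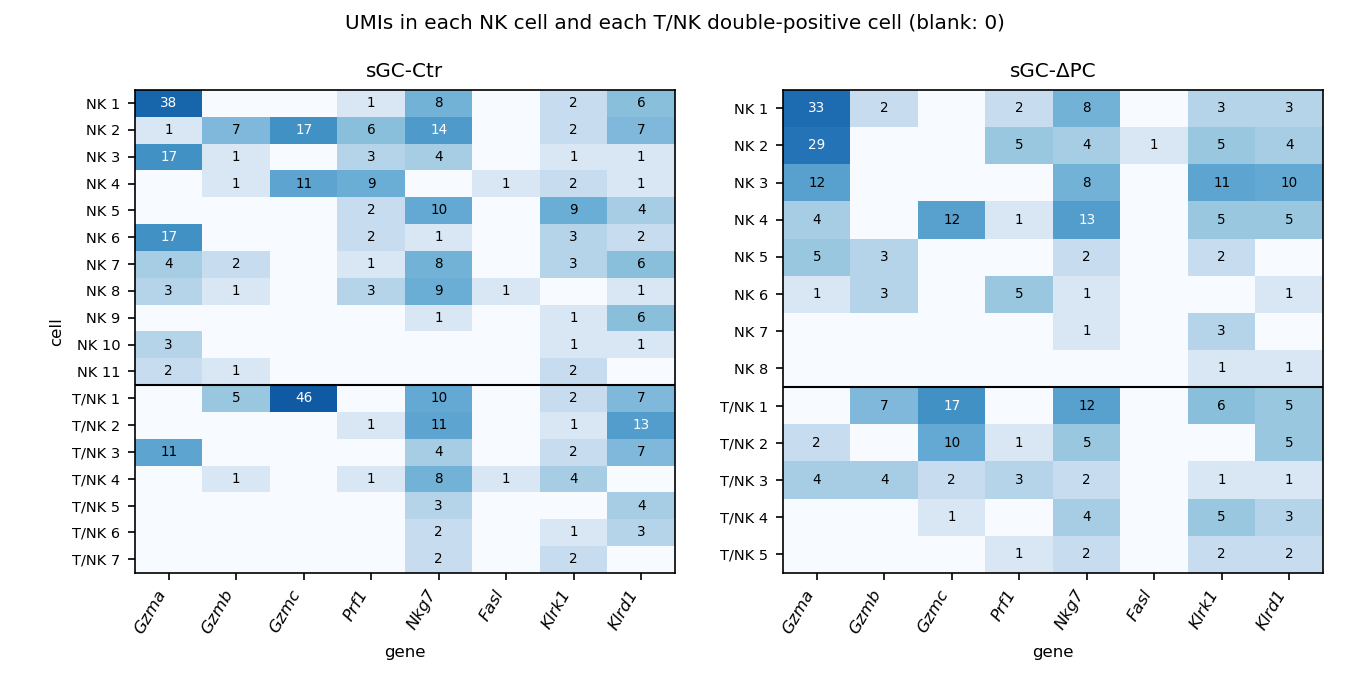
UMIs of each gene (columns) in each NK cell and, under the line, each T/NK double-positive cell (rows) of sGC-Ctr (left) and sGC-∆PC (right). Gzma reached 38 and 33 UMIs in a single NK cell, Gzmc was found in 2 and 1 NK cells, and every NK cell held at least 2 of the 8 genes.

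Cells were thinned to 2000 UMIs to count members per cell at equal depth. NK cells then held 4.11 members on average in sGC-Ctr (9 cells, 2 shallower cells left out) and 4.50 in sGC-∆PC (6 cells, 2 left out), against 4.91 and 4.38 before thinning. T cells held 1.24 (58 cells) and 1.48 (65 cells), against 1.56 and 1.73 before thinning. At least 3 members were found in 8 of 9 and 5 of 6 thinned NK cells, and in 11 of 58 and 13 of 65 thinned T cells. As the background level, thinned cancer cells, whose medians were 49822 and 13820 UMIs before thinning, held 0.00375 and 0.0109 members.

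NK and T cells differed in which members they carried. With at least 50 UMIs over both classes and libraries, 6 members could be compared: 3 were at least 2-fold higher in NK cells in both libraries, where 1.86% of 1879 genes were, and 1 was at least 2-fold lower in both, where 3.09% were. Klrk1 was 5.01-fold higher in NK cells of sGC-Ctr and 5.83-fold higher in sGC-∆PC, and Prf1 was 2.97-fold and 3.62-fold higher. On the log2 scale the Prf1 differences were 1.57 (0.84 to 2.28) and 1.86 (0.79 to 2.84). Gzma was higher by 1.97 (1.55 to 2.39) and by 9.46 (6.94 to 14.78), the second against 1 UMI in T cells. Gzmb was the member whose summed level went the other way, at -1.28 (-2.22 to -0.46) and -1.39 (-2.62 to -0.38), with 682 and 512 CPM in T cells. Few T cells set that level: the richest held 80 of 170 UMIs in sGC-Ctr, and 55 and 51 of 175 in sGC-∆PC. Gzmb was held by 6 of 11 and 3 of 8 NK cells, against 14 of 72 and 19 of 78 T cells. Klrd1 was higher in NK cells by 2.17 in sGC-Ctr and by 0.75 in sGC-∆PC. Nkg7 differed by 0.65 and 0.41, and the lower limit of the second was -0.13. The T cell class mixes subsets, which are split below. In T cells with Cd8a or Cd8b1 and no Cd4, Prf1 was 488 (359 to 646) and 225 (150 to 322) CPM. NK cells gave 584 (385 to 850) and 318 (169 to 544), so these intervals overlapped. In the same T cells Klrd1 was 305 and 635 CPM, against 757 and 587 in NK cells. Klrk1 was 173 and 194 CPM, against 563 and 734.

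In T cells, the 8 genes together gave 610 and 613 UMIs, a log2 ratio of sGC-∆PC over sGC-Ctr CPM of -0.45 (-0.61 to -0.28). Most of that difference was Gzma: without it the ratio was -0.14 (-0.32 to 0.03). Of the 6 members with at least 50 UMIs, 2 were at least 2-fold lower in sGC-∆PC (Gzma and Prf1), as were 1.31% of 1602 genes, and 1 was at least 2-fold higher (Klrd1), as were 2.12%. The median of the 6 was -0.28, and that of all genes tested was -0.08. Because lymphocytes were few, single cells set several of these values, and they are given with the cells behind them.

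Gzma in T cells was 117 UMIs in sGC-Ctr (469 CPM) and 1 UMI in sGC-∆PC (2.93 CPM), a log2 ratio of -7.32 (-12.64 to -4.82). The 117 UMIs came from 8 of 72 cells, which held 62, 30, 10, 10, 2, 1, 1 and 1. The 62 UMIs were in a cell that also held a constant gene of the gamma-delta T cell receptor. In sGC-∆PC 1 of 78 T cells held Gzma. In NK cells Gzma did not differ between the libraries beyond counting error, with a log2 ratio of 0.16 (-0.29 to 0.61) from 85 and 84 UMIs. In cells passing both gates, the T/NK double-positive cells, it was 11 UMIs in 1 of 7 cells and 6 UMIs in 2 of 5 cells.

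Prf1 in T cells was 49 UMIs in 11 cells and 30 UMIs in 14 cells, 197 and 87.8 CPM, with a log2 ratio of -1.16 (-1.87 to -0.48). A single sGC-Ctr cell held 32 of the 49 UMIs, and without the richest cell of each library the ratio was -0.21 (-1.22 to 0.81). The lower summed level in sGC-∆PC thus came with no fewer cells that held Prf1. Gzmb was 170 UMIs in 14 cells and 175 UMIs in 19 cells, with a log2 ratio of -0.41 (-0.73 to -0.10). Its richest cell held 80 UMIs in the control library, the next 26, and the richest of sGC-∆PC held 55 and 51, and without the richest cell of each library the ratio was -0.03 (-0.44 to 0.38). Nkg7 was the most widely held member, in 33 of 72 and 39 of 78 T cells, with 758 and 682 CPM and a ratio of -0.15 (-0.44 to 0.13). Fasl was 15 UMIs in 11 cells and 8 UMIs in 6 cells.

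Of the receptors, Klrd1 was higher in T cells of sGC-∆PC, and the interval of Klrk1 included 0. Klrd1 in T cells was 42 UMIs in 19 of 72 cells and 119 UMIs in 33 of 78 cells, 168 (121 to 228) and 348 (289 to 417) CPM, a log2 ratio of 1.05 (0.53 to 1.59). No cell held more than 7 UMIs in sGC-Ctr or 14 in sGC-∆PC, and without the richest cells the ratio was 1.15. At 2000 UMIs per cell, 20.7% (11.2 to 33.4%) and 36.9% (25.3 to 49.8%) of T cells held Klrd1 (26.4% and 42.3% before thinning), against 0.121% and 0.419% of cancer cells. At 1000 UMIs per cell, with 0 and 6 shallower cells left out instead of 14 and 13, the shares of T cells were 18.1% (9.98 to 28.9%) and 19.4% (11.1 to 30.5%), a difference within counting error. Klrk1 in T cells was 28 UMIs in 16 cells and 43 UMIs in 20 cells, a ratio of 0.16 (-0.56 to 0.91). NK cell markers in T cells were 36.1 and 76.1 CPM, from 2 of 9 and 4 of 9 markers, with Ncr1 and Klrb1c at 0 in both libraries. Their part in the Klrd1 difference was not tested. When 1 NK marker at 200 CPM was enough for the NK gate, an alternative chosen after seeing the data, 69 and 67 cells were left that passed the T cell gate alone and the Klrd1 ratio was 0.83 (0.27 to 1.42). The same step changed the granule genes more: the summed ratio went to -1.01, Gzmb to -1.61 from 170 and 68 UMIs, Prf1 to -2.00 from 49 and 15, and Nkg7 to -0.58.

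**Figure D4:**
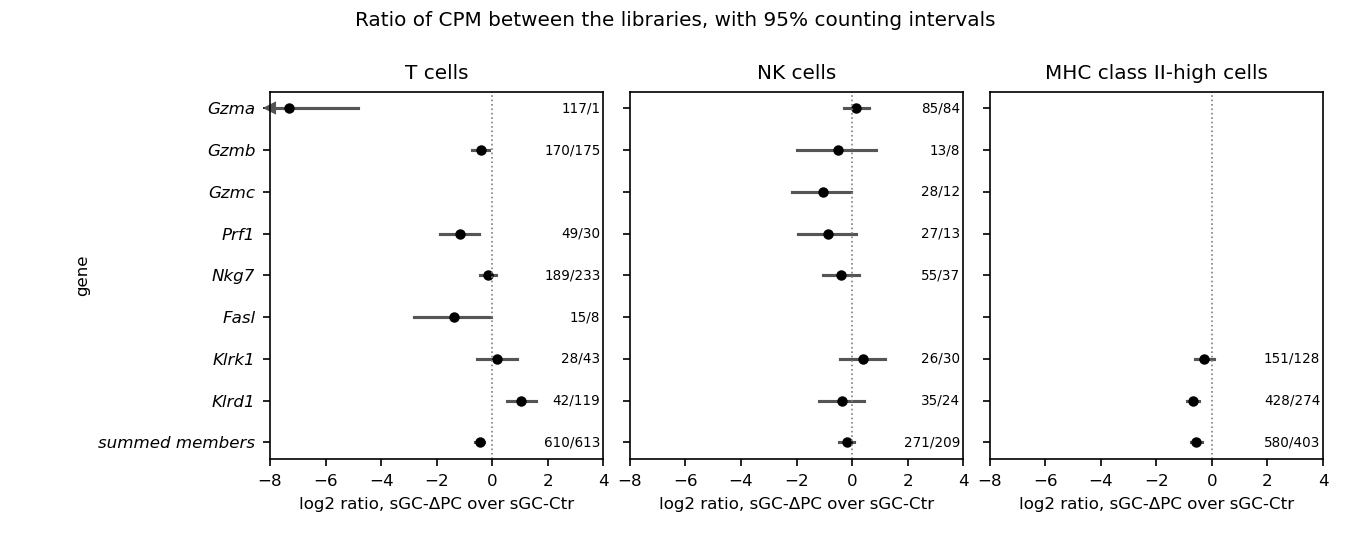
Log2 ratio of CPM, sGC-∆PC over sGC-Ctr (horizontal axis), of each gene and of all 8 summed in T, NK and MHC class II-high cells, with 95% counting intervals (lines; an arrow marks one that runs off the axis) and the UMIs of both libraries, control first, at the right; genes with under 20 UMIs in both together, or with 0 in either library, are not drawn. In T cells Gzma sits at -7.32 and Klrd1 at 1.05, whereas in MHC class II-high cells Klrd1 sits at -0.68.

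Within T cells the members split by co-receptor. CD8 T cells (Cd8a or Cd8b1 without Cd4, 27 and 26 cells) held 48 of 49 and 29 of 30 Prf1 UMIs, and 163 of 189 and 182 of 233 Nkg7 UMIs. They also held most of Gzma in sGC-Ctr (105 of 117 UMIs, in 5 of 27 cells) and most of Klrd1 (30 of 42 and 82 of 119 UMIs). Of the 105 Gzma UMIs, 62 came from the cell that also held a gamma-delta constant gene. Between the libraries Klrd1 of CD8 T cells differed by 1.06 on the log2 scale (0.44 to 1.71) and Klrk1 by 0.16 (-0.78 to 1.15). Prf1 differed by -1.12 (-1.84 to -0.42), with the control cell of 32 UMIs among the 48; in all T cells, without the richest cells, its ratio was -0.21. In T cells with neither co-receptor, 29 and 32 cells, Klrd1 was 11 and 33 UMIs and Prf1 was 0 in both libraries.

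Gzmb was held by CD8 T cells and by other T cells. CD8 T cells held 117 of 170 and 110 of 175 Gzmb UMIs, 1188 (983 to 1424) and 852 (700.0 to 1027) CPM. These UMIs came from 7 of 27 and 4 of 26 CD8 T cells. Among them were the control cell of 80 UMIs and the sGC-∆PC cells of 55 and 51, so few cells set these levels. T cells with neither co-receptor held 6 and 27 Gzmb UMIs, a log2 ratio between the libraries of 1.58 (0.27 to 3.14). T cells with Cd4 and without Cd8a or Cd8b1 (15 and 20 cells) held 47 and 38 Gzmb UMIs, 668 (491 to 889) and 393 (278 to 539) CPM, but 1 Prf1 UMI in each library. T cells with Foxp3, the factor that defines regulatory T cells, numbered 15 and 9 and overlap with the other sets. They held 51 and 44 Gzmb UMIs, 671 (500 to 883) and 794 (577 to 1066) CPM, with 1 and 1 Prf1 UMIs and 0 Fasl UMIs. Gzmb was held by 6 of 15 and 6 of 9 cells with Foxp3, and Prf1 by 1 cell in each library. Klrk1 and Klrd1 in cells with Foxp3 were at 0 in sGC-Ctr and at 5 and 10 UMIs, each from 1 cell, in sGC-∆PC.

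**Figure D5:**
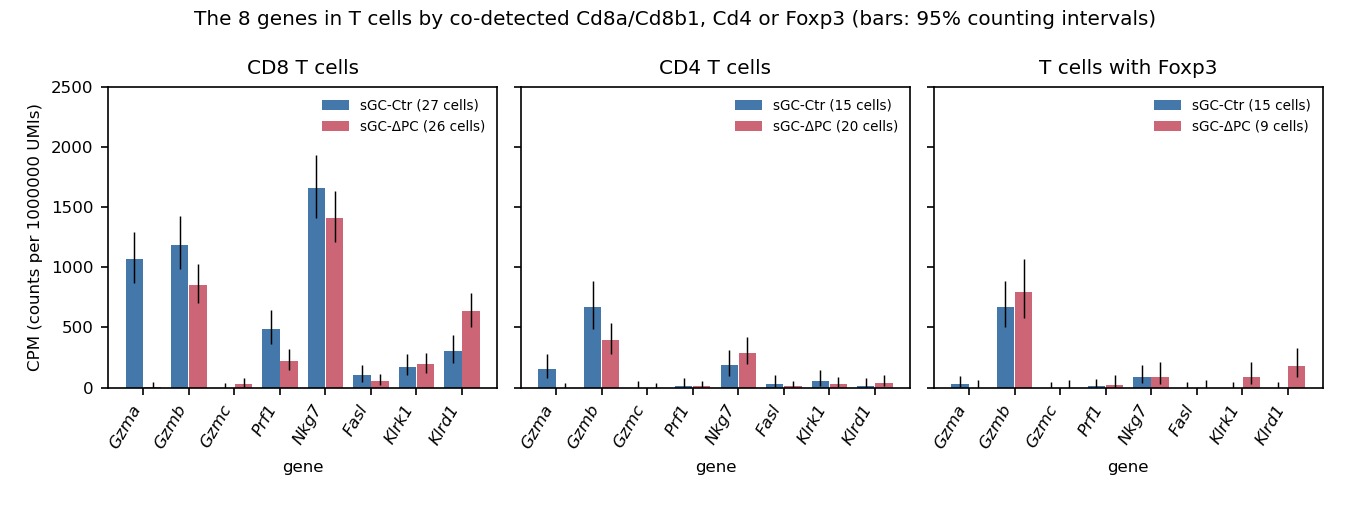
CPM (vertical axis) of each gene in CD8 T cells, CD4 T cells and T cells with Foxp3 of sGC-Ctr (blue) and sGC-∆PC (red), with 95% counting intervals; the Foxp3 set overlaps with the others. Prf1 was at 488 and 225 CPM in CD8 T cells and under 20 in the other sets, whereas Gzmb was at 393 or above in every set shown. In CD8 T cells Gzmb came from 7 of 27 and 4 of 26 cells.

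In NK cells the counting interval of the ratio between the libraries included 0 for each member but Gzmc. The 8 genes summed to 271 and 209 UMIs, a log2 ratio of -0.20 (-0.46 to 0.07), and without Gzma the ratio was -0.40 (-0.73 to -0.06). Of the 4 members with at least 50 UMIs, 0 were at least 2-fold lower, as were 2.46% of 203 genes, and 0 were at least 2-fold higher, as were 7.39%. Their median was -0.10, against -0.04 for all genes tested. With 11 and 8 cells, the counting interval of Klrk1 (0.38, -0.42 to 1.20) included a difference of the size seen for Klrd1 in T cells. Klrd1 itself gave -0.37 (-1.18 to 0.42) in NK cells, and -1.58 after thinning to 2000 UMIs. Its ratio in T cells was 1.05. These intervals leave out the spread between cells and libraries, so they cannot exclude an equal ratio in both classes, which was not tested. The ratio of Gzmc (-1.04, -2.16 to -0.02) rested on 3 cells and changed sign with 1 marker more for the gate (0.14). When 1 NK marker was enough for the gate, 22 and 50 cells passed and the summed ratio was -0.74.

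MHC class II-high cells were 140 and 188 cells that passed no gate and held at least 20000 CPM of H2-Aa, H2-Ab1, H2-Eb1 and Cd74, a limit set after their receptor levels had been seen. Ranked against the rest as a whole, not against each class, their leading genes after those 4 were Klrd1, Ciita (the master regulator of MHC class II genes), Mgl2 and Napsa. NK cells held more Klrd1 than these cells, at 757 and 587 CPM. They are given no cell type name. All 7 dendritic cell markers were found in them, at 245 and 208 CPM in all, against 1866 and 1854 CPM in gated dendritic cells. All 6 macrophage markers were found in them too, at 343 and 483 CPM. Klrk1 was 151 UMIs in 64 cells and 128 UMIs in 62 cells, 141 (120 to 166) and 117 (97.6 to 139) CPM. Klrd1 was 428 UMIs in 87 cells and 274 UMIs in 73 cells, 401 (364 to 440) and 250 (222 to 282) CPM. Either receptor was found in 69.3% and 51.1% of the cells. Levels in macrophages of the same libraries were 1.92 and 3.72 CPM for Klrk1 and 1.37 and 2.79 for Klrd1.

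In MHC class II-high cells the receptors came without the killing machinery. Prf1, Nkg7, Gzmc and Fasl were at 0 UMIs in both libraries, and Gzma and Gzmb were at 1 UMI or 0. Against a floor of 3 counts in the class, Nkg7 was at least 270-fold lower than in T cells of sGC-Ctr and at least 249-fold lower in sGC-∆PC. Cd3e, Cd3g and Trbc1 of the T cell markers and Ncr1, Klrb1c, Klra7, Klra8, Klra9 and Eomes of the NK markers were at 0 in both. T and NK markers summed to 23.4 and 21.0 CPM, of which NK markers gave 22.5 and 15.5. Dendritic cells, gated by their own markers, held Klrk1 at 108 and 158 and Klrd1 at 295 and 222 CPM, and 1 UMI of the 6 granule and ligand genes in each library. Plasmacytoid dendritic cells (7 and 8) held 21 and 2 Klrd1 UMIs.

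Klrd1 differed between the libraries in opposite directions in these cells and in T cells. Its log2 ratio was -0.68 (-0.90 to -0.46) in MHC class II-high cells and -0.41 (-0.79 to -0.04) in dendritic cells. Klrk1 gave -0.27 (-0.62 to 0.08) and 0.54 (0.02 to 1.07). Neither receptor passed 2-fold in MHC class II-high cells, where 0.379% of 4754 genes were at least 2-fold lower and 1.49% at least 2-fold higher. At 2000 UMIs per cell, 40.6% (32.3 to 49.3%) and 29.0% (21.2 to 37.9%) of these cells held Klrd1 (62.1% and 38.8% before thinning), with 2 and 64 shallower cells left out. At 1000 UMIs per cell, with 0 and 7 left out, the shares were 24.3% (17.4 to 32.2%) and 19.9% (14.3 to 26.5%), and their intervals overlapped. The median depth of the class was 7307 and 4155 UMIs. Of the 96 Klrd1 UMIs of dendritic cells in sGC-∆PC, 29 came from 1 cell.

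Outside these cells the members were rare. B cells (8 and 5) and pericytes (35 and 28), the cells in which the Cre was meant to act, held 0 UMIs of the 8 genes. A single mast cell or basophil of sGC-Ctr held 10 Gzmb UMIs. In droplets of the cancer cell gate the members summed to 0.916 and 3.22 CPM, a log2 ratio of 1.82 (1.64 to 1.99). All 6 members with at least 50 UMIs there were at least 2-fold higher in sGC-∆PC, as were 3.91% of 15274 genes, and 0 were lower, as were 0.131%. That minimum counts both libraries together, so a gene can meet it through the library where it is higher. Below it, Gzmc gave 6 and 17 UMIs and Fasl gave 12 and 9, a log2 ratio of -0.11 (-1.54 to 1.26) for Fasl. The 6 T cell markers, all found in the same droplets, stood at 0.969 and 2.61 CPM there. The 9 NK markers, also all found, stood at 9.24 and 11.02 CPM, from 3803 of 411728439 and 3684 of 334201306 UMIs. Their ratio between the libraries was thus smaller than that of the T cell markers or of the summed members. NK markers gave most of the 4202 and 4556 UMIs of T and NK markers in this gate. At least 3 members were found in 6 and 28 droplets of this gate, of which 6 and 24 also held a T or NK marker, as did 1818 of all 7560 and 2495 of all 12348. In macrophages the members summed to 3.80 and 8.24 CPM, and the T cell markers stood at 2.15 and 4.23 CPM. Of the 2 members with at least 50 UMIs in macrophages, 1 was at least 2-fold higher in sGC-∆PC (Klrd1), as were 1.35% of 11776 genes, and 0 were lower, as were 0.348%. The part of lymphocyte RNA in these differences was not tested.

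Other genes of the killing pathway were counted from lists of 51 genes, of which 48 were in the files. Among 9 genes of granule cargo and exocytosis, 5 had at least 50 UMIs in T cells, and 1 of them was at least 2-fold higher in sGC-∆PC, as were 2.12% of all 1602 genes: Ctsc, which activates granzymes by trimming them, with 12 and 43 UMIs (1.39, 0.44 to 2.45). Srgn, the proteoglycan that packs the granule, gave 874 and 887 CPM (0.02, -0.24 to 0.28). Among 9 partners and kin of the receptors, 2 reached that minimum, and Tyrobp (DAP12, a signaling adaptor of killer receptors) was at least 2-fold higher, against the same 2.12% of genes, with 12 and 74 UMIs (2.17, 1.28 to 3.19), while Hcst (DAP10, the adaptor of NKG2D) gave -0.11 (-0.54 to 0.33). Klrc1, which encodes NKG2A, the inhibitory partner of CD94, gave 15 and 28 UMIs in T cells. Tyrobp is also a gene of macrophages, whose 6 markers stood at 225 and 240 CPM in T cells.

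Of 7 effector cytokines and death ligands, 2 reached 50 UMIs in T cells, and Ccl5, a chemokine of cytotoxic lymphocytes, was at least 2-fold lower in sGC-∆PC, as were 1.31% of all 1602 genes, with 966 and 487 UMIs (-1.44, -1.60 to -1.28). Ccl5 was also lower in NK cells, with 196 and 52 UMIs (-1.74, -2.21 to -1.29), where it was the only gene of the 7 to reach the minimum and where 2.46% of 203 genes were at least 2-fold lower. Ccl4 gave 88 and 63 UMIs in T cells (-0.94, -1.43 to -0.45) and Xcl1 gave 5 and 30. None of the 7 other granzymes reached 50 UMIs in T or NK cells; Gzmk gave 13 and 2 UMIs in T cells and Gzmd 0 and 18. Of 9 genes for targets and inhibitors of killing, 4 reached the minimum in T cells and Serpinb6b, of a family of granzyme inhibitors, was at least 2-fold lower, against the same 1.31% of genes (32 and 20 UMIs, -1.13, -2.02 to -0.28). Serpinb9, which inhibits granzyme B and protects killer cells too, gave 18 and 22 UMIs in T cells and 27 and 1 in NK cells.

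The ligands were measured in the cells that killers would meet. Of 10 ligand genes of NKG2D and CD94, 7 were in the files and 4 reached 50 UMIs in cancer cells, where 0 passed 2-fold either way, as 0.131% (lower) and 3.91% (higher) of genes did. Raet1e, an NKG2D ligand, gave 5359 and 4651 UMIs in cancer cells (log2 ratio of CPM 0.10, 0.04 to 0.15), Ulbp1 gave 2.59 and 3.02 CPM, and Raet1d gave 1.45 and 1.93 CPM. H2-T23 (Qa-1), the ligand of CD94, gave 8.51 and 10.9 in cancer cells and 35.0 and 50.4 in macrophages. Their median log2 ratio in cancer cells was 0.29, against 0.01 for all genes. Serpinb9 was 9.29 and 9.25 CPM in cancer cells.

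The genes whose levels followed the members most closely were Sh2d2a (r = 0.963), Il2rb (0.963), Ctsw (0.957), Sh2d1a (0.954) and Xcl1 (0.947). The measure is Pearson's r between log2(CPM + 1) and the mean of the members over 30 points, classes within libraries. It was ranked among 2006 genes with at least 50 UMIs in T and NK cells together, members and gate markers left out. Genes thus entered the ranking through classes where the members are high. The points share libraries and the few lymphocyte cells, so r is a description. Against the mean of the other members, Nkg7 (0.950) and Prf1 (0.945) were closest, and Klrd1 (0.724) was farthest.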

How the data were processed

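The deposited matrices hold UMI counts per gene and barcode from 10x 3′ libraries, 1 per condition, which the authors made with Cell Ranger 6.1.1 on mm10, per the labels. A barcode was kept when its mitochondrial share was under 10% and when its UMI total and gene number, on a log scale, lay no farther than 3 median absolute deviations from the median of its library. Classes came from marker gates, which hold no member: T, NK, B, mast and both dendritic classes needed 2 markers and 500 CPM (counts per 1000000 UMIs), and other gates 2 or 3 markers and 300 to 5000 CPM. Droplets that passed several gates were left out as possible doublets, except cells of both T and NK gates and macrophages with monocyte markers. No doublet caller was run. UMIs were summed per class and library. Intervals are exact Poisson, exact binomial (Clopper-Pearson) and conditional binomial intervals at 95%. Cells are not replicates, and no p-value is given. Counts of genes past 2-fold used genes with at least 50 UMIs and a pseudocount of 0.5 UMIs. Python 3.11.15, NumPy 2.4.6, SciPy 1.17.1 and pandas 2.3.3 were used, and the steps were tested on simulated data. The kept cells hold 476464534 and 412064152 UMIs, of which lymphocytes hold few, so values under 20 UMIs are imprecise.

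Named genes are the 8 members, then up to 4 genes of each pathway list that were highest in T and NK cells or had the largest ratio between libraries, and the 5 closest in pattern. Members and lists were chosen with earlier results of these data known, and the MHC class II-high class was defined after values were seen. Positions are from GENCODE M21 on GRCm38, the build of mm10, and promoters from RefSeq GRCm38.p6, where 7 of 8 members matched. Alternatives were the cell filter, stricter or looser gates, mixed droplets kept, NK markers without Klra genes, thinning to 2000 or 1000 UMIs, scaling to the median gene, the richest cells left out and a minimum of 20 UMIs.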

Additional observations from a re-analysis of the deposited data

Results flagged for a closer look

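Barcodes that failed the cell filter, 2787 in sGC-Ctr and 3133 in sGC-∆PC, enter no comparison above, and the lower 95% limit of some members there in sGC-∆PC lay above their level in sGC-Ctr. In sGC-∆PC they held 1.48 CPM (counts per 1000000 UMIs) of Gzma, 2.35 of Gzmb, 1.07 of Prf1 and 1.89 of Nkg7, and 12.3 of all 8 genes, against 0.0878, 0.790, 0.176, 0.878 and 7.02 in sGC-Ctr. Kept cells held 8.59 and 5.55 CPM of all 8 genes in sGC-∆PC and sGC-Ctr. Barcodes with the T cell gate among those removed were 17 and 6. The removed sets were unlike: the limit on median absolute deviations alone removed 946 of the 2787 in sGC-Ctr and 0 of the 3133 in sGC-∆PC.

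Klrd1 stood out because its log2 ratio between the libraries had opposite signs in different cells: 1.05 in T cells, against -0.68 in MHC class II-high cells and -0.41 in dendritic cells. The sign also differed among lymphocytes, with -0.37 (-1.18 to 0.42) in NK cells and -0.91 (-1.87 to -0.02) in T/NK double-positive cells. In T, NK and double-positive cells together the ratio was 0.19 (-0.17 to 0.56). The difference between the classes was not tested, since each ratio compares a single library per condition.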

How the results depend on the processing

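Of 116 values of single members under alternatives, 104 stayed within the counting interval of the reported value, 10 moved out of it and 2 reversed. In all, 13 of the 116 had the other sign than the reported value, among them Prf1, Gzma and Gzmb in NK cells, most where the reported interval included 0. The values counted as reversed, whose reported interval excludes 0, were both Gzmc in NK cells (-1.04 as reported), at 0.14 with 1 marker more for the gate and 0.58 after thinning to 2000 UMIs; it rests on 3 cells. Thinning also moved Prf1 (0.45) and Klrd1 (-1.58) in NK cells and Klrk1 (-0.60) in T cells. Leaving out the richest cell of each library, a step added after seeing the data, moved Gzmb (-0.03) and Prf1 (-0.21) in T cells. A gate that needs 1 NK marker, also added after seeing the data, moved the NK cell share to 0.180% and 0.222%, the summed ratio to -0.74 in NK cells and -1.01 in T cells, Gzma (-0.56) and Nkg7 (-1.06) in NK cells, and Gzmb (-1.61), Prf1 (-2.00) and Nkg7 (-0.58) in T cells. Keeping droplets of other gates moved the T cell share to 0.786% and 0.556%, and the share of member UMIs in T and NK cells to 44.6% and 35.9%, from 39.1% and 26.3%. With 1 marker more, the T cell share in sGC-∆PC was 0.262%. With a minimum of 20 UMIs, genes past 2-fold numbered 164 lower and 192 higher in T cells (21 and 34 at 50 UMIs), 38 and 32 in NK cells (5 and 15), and 183 were higher in NK than in T cells (35). Klrd1 in T cells ran from 0.61 to 1.15 over its alternatives. Gzma in T cells has no ratio without the richest cells or with 1 NK marker enough, because 0 UMIs were left in sGC-∆PC, and Gzmc in T cells, at 0 in sGC-Ctr, has none. The causes of these moves were not tested. The number of lymphocytes limits the values, with 11 and 8 NK cells.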
